A study of Saccharomyces cerevisiae with 12 samples.

Results

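The 2 TOR kinases of budding yeast, TOR1 and TOR2, were followed on 12 microarrays during a shift to 37 °C. Subunits of the complexes they form, LST8, KOG1, TCO89, AVO1, AVO2, TSC11 and BIT61, were followed with them. The genes were chosen by name as members of TOR complex 1 (TORC1) or TOR complex 2 (TORC2). No measured value entered the rule, but earlier results of these data were known when they were chosen. All 9 were found among the 5445 genes read by at least 1 plain probe set, a probe set being the group of short oligonucleotides that reads a transcript. MU was strain SH121, with a TOR2 allele that fails at high temperature, and was described as having lost the signaling function that TOR1 cannot share. WT was its isogenic partner SH100. Each strain was sampled at 0 h, from rich glucose medium (YPD) at 25 °C, and after 2 h and 6 h at 37 °C. Each of the 6 groups was read on 2 arrays from separately grown cultures, named A and B. No other genotype detail is given in the sources used here, each genotype was 1 strain, and both strains went through the same heat shift.

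TOR kinases are very large serine/threonine kinases that couple growth to nutrients and stress. In TORC1, which rapamycin inhibits, either Tor1 or Tor2 works with Kog1, Lst8 and Tco89 to promote translation, ribosome production and nutrient uptake. In TORC2, only Tor2 serves as the kinase, with Avo1, Avo2, Avo3 (the product of TSC11), Bit61 and the shared Lst8, and this complex acts through the Ypk kinases on sphingolipids, the plasma membrane and the polarity of the actin cytoskeleton.

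In WT cells AVO2, a TORC2 subunit, rose 2.20-fold after 6 h at 37 °C. It was the only 1 of the 9 genes to pass the test in that comparison, in which 9.84% of all probe sets were called higher and 9.49% lower. In MU cells TOR2 itself rose 1.54-fold after 6 h, again 1 gene of 9, against 10.8% of all probe sets higher and 11.2% lower. AVO2 also rose in MU at 6 h (1.82-fold) and TOR2 in WT (1.22-fold), but neither change passed. The strains were not shown to differ in the 6 h change of either gene. After 2 h, 0 of 9 genes passed in MU, where 4.87% of all probe sets were called higher and 3.11% lower, and 0 of 9 passed in WT, where 5.38% were called higher and 3.27% lower. At unadjusted p under 0.05 these 2 h comparisons held 2 genes in MU (TOR1 and TOR2) and 1 in WT (AVO2). Of all probe sets, 23.8% reached that level in MU and 24.8% in WT. No gene of the set passed the same test between the strains at any time, where 0.0323% of all probe sets passed at 0 h and 0% at 2 h and at 6 h. A call here means an adjusted p under 0.05 from limma, fitted on log2 signals of all 9298 tested probe sets and all 12 arrays, with Benjamini-Hochberg adjustment over all of them. In total 2 of 108 member comparisons passed, and 13 had an unadjusted p under 0.05. Depending on the comparison, 0 to 2047 of all 9298 probe sets passed, and 4.18% to 35.8% had an unadjusted p under 0.05.

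The arrays themselves were alike in brightness and spread. Their median signals lay between 72 and 75.8 units, Pearson's r between duplicates lay between 0.970 and 0.978 across probe sets, and 4.33% to 6.38% of probe sets on an array stood at the lowest value, 1. The temperature shift showed in genes known for heat induction. HSP12, which encodes a membrane-protecting heat shock protein, was called higher in all 4 comparisons with 0 h, with log2 changes of 3.34 (2 h) and 4.03 (6 h) in MU and 3.42 (2 h) and 3.98 (6 h) in WT. HSP104, which encodes a disaggregase, and SSA4, which encodes a stress-induced Hsp70, were also called in all 4, with changes at 6 h of 1.56 and 1.27 in MU and of 1.52 and 1.11 in WT. In such bulk RNA, a lower share of cells that express a gene and less of its RNA in each cell cannot be told apart. Which copy or copies of TOR2 its probe set reads in MU is not known here, since the construction of the allele was not described, so the TOR2 signal does not check the strain label.

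**Figure D1:**
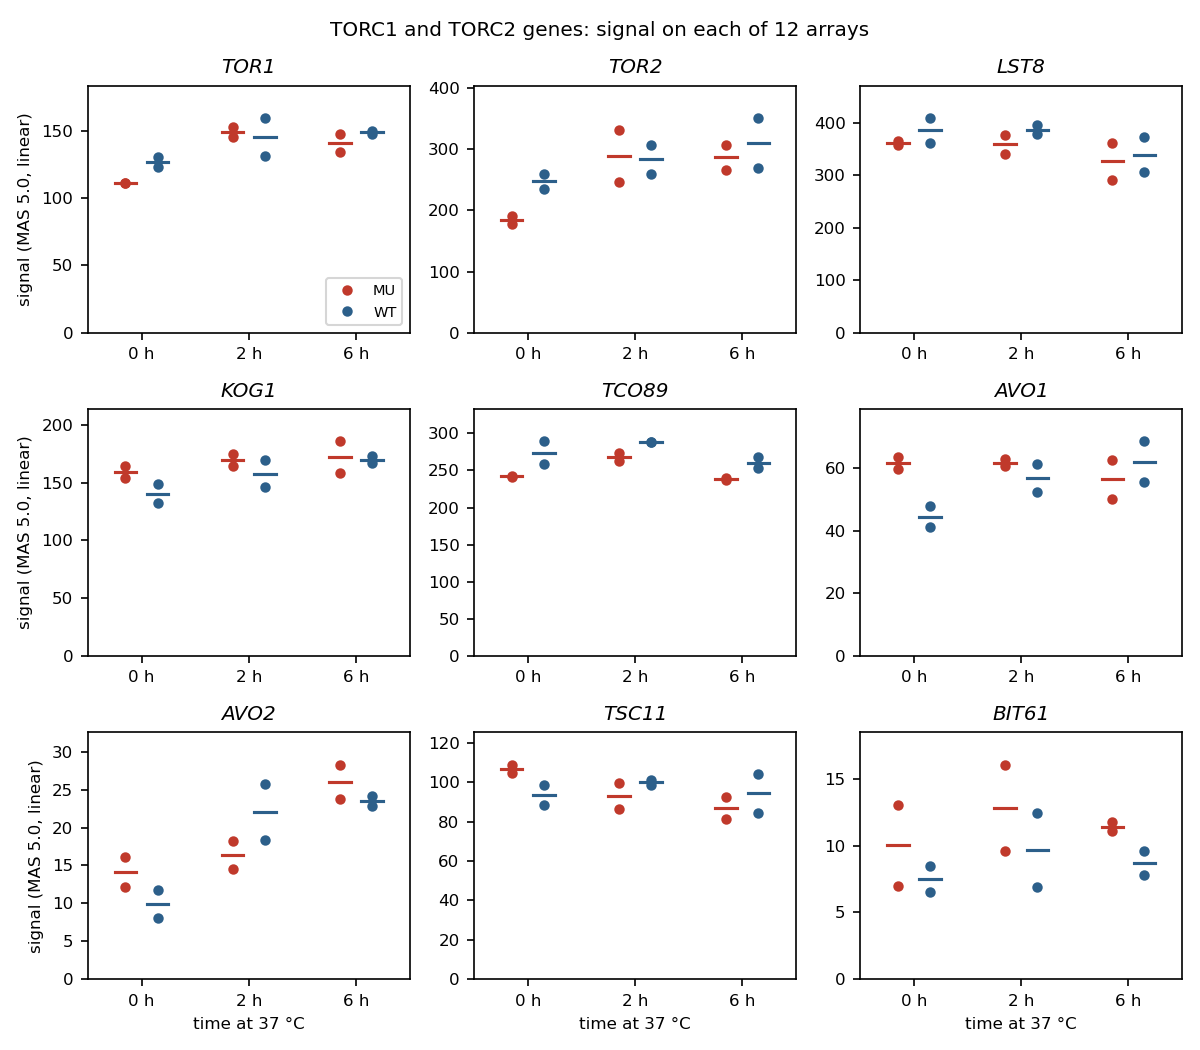
Signal of each gene (linear MAS 5.0 units, vertical axis) against time at 37 °C, with a dot for each array, a bar for the mean of the 2 arrays of a group, MU in red and WT in blue; each panel has its own vertical scale. TOR2 was lowest on the 2 MU arrays at 0 h (178.4 and 190.6), and AVO2 was above 22 on all 4 arrays at 6 h.

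Signals of different probe sets cannot be set against each other as amounts of RNA, so each gene was ranked only within an array, on a scale of 0 for the dimmest to 100 for the brightest probe set. BIT61 (ranks 8.80 to 19.2) and AVO2 (11.1 to 27.8) were the dim probe sets of the list. AVO1 lay between 34.8 and 45.5, and the probe sets of the other 6 genes never went under rank 49.3. No member stood at the lowest value on any array. Duplicate cultures differed by a median of 0.04 log2 for TCO89, the most repeatable gene of the set, and by 0.54 log2 for BIT61, the least repeatable, beside a median of 0.21 over all probe sets. Values in the following sentences are deposited signals, and overlap of arrays refers to them unless the normalized log2 values, the scale of the test, are named.

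TOR2 encodes the kinase that works in both complexes. Its signals in MU were 178.4 and 190.6 at 0 h, 246.1 and 331.6 at 2 h, and 306.6 and 267.0 at 6 h. Its signals in WT were 260.3 and 235.9 at 0 h, 307.9 and 259.5 at 2 h, and 268.9 and 351.1 at 6 h. The 2 MU arrays at 0 h were the lowest of the 12, and every shifted MU array lay above them, whereas in WT the 2 h arrays overlapped those at 0 h and the 6 h arrays lay just above them.

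In MU the log2 change of TOR2 was 0.63 at 6 h against 0 h (SE 0.18, 95% interval 0.21 to 1.04, adjusted p = 0.0423). At 2 h against the same 0 h arrays it was 0.62 (SE 0.18, adjusted p = 0.0814), which did not pass. In WT the changes were 0.29 at 6 h (adjusted p = 0.307) and 0.16 at 2 h (adjusted p = 0.639). The difference between the strains in the change of TOR2 was itself tested and did not pass: MU minus WT was 0.34 at 6 h (SE 0.25, adjusted p = 0.950) and 0.46 at 2 h (SE 0.25, adjusted p = 1). At 0 h TOR2 was 0.44 log2 units lower in MU than in WT, with an interval for MU minus WT of -0.85 to -0.02 and an adjusted p of 1. The 6 h call in MU was close to the threshold. It held in 4 of the 12 fits that left out 1 array, and its adjusted p was 0.162 without MU 0 h A, 0.119 without MU 0 h B, 0.155 without MU 6 h A, 0.0845 without MU 6 h B, 0.0631 and 0.0630 without WT 0 h A or B, and 0.0521 and 0.0519 without WT 2 h A or B.

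TOR1 encodes the kinase that works only in TORC1. The MU arrays read 111.3 and 111.5 at 0 h, 145.2 and 152.8 at 2 h, and 147.9 and 134.1 at 6 h. The WT arrays read 130.5 and 123.2 at 0 h, 159.5 and 131.4 at 2 h, and 148.0 and 150.3 at 6 h. The MU arrays at 0 h were again the lowest. In MU every shifted array lay above them, whereas in WT the lower 2 h array stood barely above the 0 h arrays and overlapped them on the normalized values (7.03 at 2 h B, against 7.05 at 0 h A).

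The log2 change of TOR1 in MU was 0.41 at 2 h (SE 0.11, adjusted p = 0.0577) and 0.33 at 6 h (SE 0.11, adjusted p = 0.0602), both just short of the threshold. Without WT 2 h A or B, which are not in these comparisons but enter the estimate of spread, the 2 h change passed (adjusted p = 0.0376 and 0.0367), as did the 6 h change (0.0345 and 0.0340). In WT it was 0.14 at 2 h (adjusted p = 0.464) and 0.19 at 6 h (adjusted p = 0.248). The strains were not shown to differ in these changes (MU minus WT 0.27 at 2 h, SE 0.15, adjusted p = 1, and 0.14 at 6 h, SE 0.15, adjusted p = 0.962). TOR1 was the only member with more than 1 probe set on the array, and 8 others carried its name. Of these, 1 stood at the lowest value on all 12 arrays, another did so on 4, and the next never passed 9 units. The 1 at the lowest value on all 12 arrays is the only other plain set. The rest carry a suffix, most of them for probes that can also read related sequences. A brighter one of these, with signals of 72.2 to 132.5, changed by 0.56 in MU at 2 h (adjusted p = 0.0771) and by -0.34 in WT at 6 h (adjusted p = 0.178). Another, with signals of 85.6 to 174.5, changed by 0.51 (adjusted p = 0.357) and by 0.35 (adjusted p = 0.468) in these comparisons. In MU at 6 h the former changed by 0.07 (adjusted p = 0.804) and the latter by 0.08 (adjusted p = 0.886). The TOR1 values above are those of its brightest plain probe set alone.

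LST8 encodes the beta-propeller protein that binds the kinase domain in both complexes. In MU the signals were 365.0 and 358.2 at 0 h, 378.0 and 341.6 at 2 h, and 361.3 and 292.0 at 6 h. In WT the signals were 409.3 and 362.4 at 0 h, 378.3 and 396.1 at 2 h, and 373.7 and 306.2 at 6 h. The arrays at 37 °C overlapped those at 0 h in every shift comparison, and no 2 neighbouring groups in the order of means were apart, although WT 0 h and MU 0 h were on the normalized values. The log2 changes lay between -0.21 and -0.01, and the 95% intervals of the 4 shift comparisons together spanned folds of 0.700 to 1.22.

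KOG1 encodes the TORC1 scaffold that presents substrates to the kinase, the yeast counterpart of Raptor. Its signals in MU were 153.9 and 164.9 at 0 h, 175.1 and 164.4 at 2 h, and 158.0 and 185.8 at 6 h. Its signals in WT were 132.4 and 148.6 at 0 h, 145.9 and 169.9 at 2 h, and 167.1 and 172.8 at 6 h. The shifted groups overlapped those at 0 h except in WT at 6 h, where both arrays lay above, a log2 change of 0.24 (SE 0.12, adjusted p = 0.199). The intervals of the 4 shift comparisons spanned folds of 0.874 to 1.43.

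TCO89 encodes a subunit found in TORC1 but not in TORC2. The MU arrays read 241.6 and 242.6 at 0 h, 273.3 and 263.2 at 2 h, and 237.3 and 240.4 at 6 h. The WT arrays read 289.2 and 258.1 at 0 h, 288.2 and 287.9 at 2 h, and 252.7 and 268.3 at 6 h. The MU arrays lay below the WT arrays at all 3 times. The difference MU minus WT averaged over the times was -0.13 (SE 0.04, 95% interval -0.23 to -0.04), but its adjusted p was 0.510. After the shift its log2 changes lay between -0.09 and 0.14 in either strain, and the intervals spanned folds of 0.835 to 1.24.

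AVO1 encodes a TORC2 subunit needed for viability, the counterpart of mammalian SIN1. In MU the signals were 63.4 and 59.8 at 0 h, 62.9 and 60.5 at 2 h, and 62.5 and 50.2 at 6 h. In WT the signals were 41.1 and 47.8 at 0 h, 61.4 and 52.3 at 2 h, and 68.5 and 55.6 at 6 h. The WT arrays at 0 h were the lowest of the 12, and the shifted groups of both strains overlapped. MU exceeded WT by 0.43 at 0 h (95% interval 0.03 to 0.84, adjusted p = 1). The change to 6 h was -0.15 in MU (adjusted p = 0.599) and 0.42 in WT (adjusted p = 0.141), and MU minus WT for that change was -0.57 (SE 0.25, adjusted p = 0.950).

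AVO2 encodes a TORC2 subunit that cells can live without. Its signals in MU were 12.1 and 16.1 at 0 h, 14.5 and 18.2 at 2 h, and 23.7 and 28.3 at 6 h. Its signals in WT were 11.7 and 8.0 at 0 h, 25.8 and 18.4 at 2 h, and 24.2 and 22.9 at 6 h. All 4 arrays at 6 h lay above all 4 arrays at 0 h. At 2 h the WT arrays were already above those at 0 h, whereas the MU arrays still overlapped theirs.

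In WT the log2 change of AVO2 at 6 h was 1.13 (SE 0.28, 95% interval 0.49 to 1.78, adjusted p = 0.0273). In MU it was 0.87 at 6 h (SE 0.28, adjusted p = 0.0598), short of the threshold. At 2 h it was 0.19 in MU (adjusted p = 0.749) and 0.99 in WT (adjusted p = 0.0675). The strains were not shown to differ in the change: MU minus WT was -0.81 at 2 h (SE 0.39, adjusted p = 1) and -0.27 at 6 h (SE 0.39, adjusted p = 0.974). With an offset of 16 units added to each signal, the WT change at 6 h was 0.56. The WT call at 6 h held in 9 of the 12 fits that left out 1 array, and its adjusted p was 0.135 without WT 0 h B, 0.102 without WT 6 h A and 0.0791 without WT 6 h B.

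TSC11 encodes Avo3, the TORC2 subunit that corresponds to mammalian Rictor and is needed for viability. The MU arrays read 109.0 and 104.9 at 0 h, 86.5 and 99.6 at 2 h, and 81.6 and 92.5 at 6 h. The WT arrays read 88.7 and 98.7 at 0 h, 98.8 and 101.2 at 2 h, and 84.6 and 104.1 at 6 h. The MU arrays at 0 h were the highest of the 12 and lay above the shifted MU arrays, and in WT the 2 h arrays overlapped those at 0 h on the normalized values. The log2 change at 6 h was -0.31 in MU (SE 0.14, adjusted p = 0.160) and -0.04 in WT (adjusted p = 0.900).

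BIT61 encodes an accessory TORC2 subunit. In MU the signals were 13.1 and 7.0 at 0 h, 16.1 and 9.6 at 2 h, and 11.8 and 11.1 at 6 h. In WT the signals were 8.5 and 6.5 at 0 h, 12.5 and 6.9 at 2 h, and 9.6 and 7.8 at 6 h. Duplicates differed by 0.08 to 0.93 log2, with a median of 0.54. This median exceeded the log2 changes of the 4 shift comparisons (0.05 to 0.35). It also exceeded the differences MU minus WT at the 3 times (0.24 to 0.49). The intervals of the shift comparisons spanned folds of 0.523 to 2.51. Each of them included no change, so neither a rise nor a fall was shown.

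**Figure D2:**
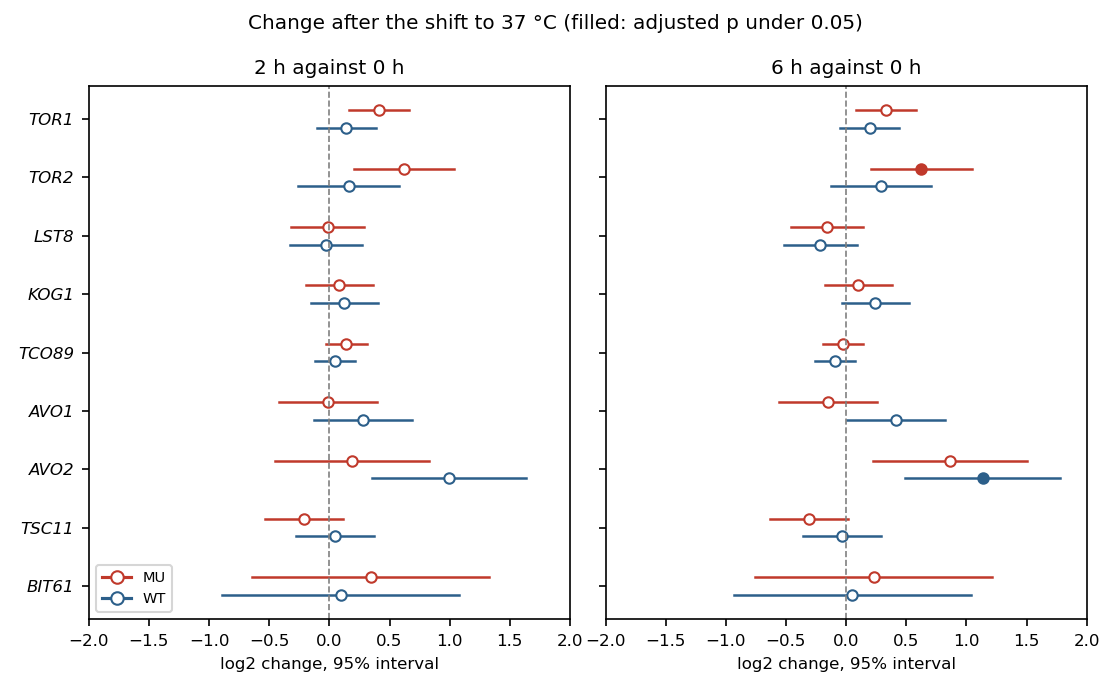
Log2 change with its 95% interval (horizontal axis) for each of the 9 genes at 2 h and at 6 h at 37 °C against 0 h, MU in red above WT in blue, with a filled dot for an adjusted p under 0.05. The filled dots are TOR2 in MU at 6 h (0.63) and AVO2 in WT at 6 h (1.13), and the widest intervals are those of BIT61.

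Counted by arrays that did not overlap between 0 h and the later time, 3 members lay higher and 1 lower in MU at 2 h, and 3 higher and 2 lower in MU at 6 h. All probe sets did so in either direction at rates of 55.1% and 60.4% in these comparisons. In WT, 4 members lay higher at 2 h and 5 at 6 h and 0 lay lower, beside 54.2% and 59% of all probe sets. On the normalized values 4 members did not overlap in MU at 2 h and 5 at 6 h, beside 55.2% and 60.6% of all probe sets. In WT the normalized counts were 2 at 2 h (AVO1 and AVO2) and 5 at 6 h, beside 54.7% and 59.7%, as TOR1 and TSC11 then overlapped at 2 h. The median log2 change of the 9 genes was 0.14 at 2 h and 0.10 at 6 h in MU and 0.12 and 0.19 in WT, beside medians of -0.03, -0.06, -0.02 and -0.04 for all probe sets in the same order. The 2 h and 6 h comparisons of a strain share its 0 h arrays.

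Between 6 h and 2 h at 37 °C, 0 of 9 members passed in MU, where 0.624% of all probe sets did, and 0 of 9 in WT, where 0.0645% did. At unadjusted p under 0.05 these comparisons held 1 member, AVO2 in MU (log2 change 0.68, adjusted p = 0.241), and 0 in WT. Of all probe sets, 18.8% reached that level in MU and 11.5% in WT.

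The strains were compared at each time to ask whether the TOR2 allele goes with a different level of any complex subunit. At 0 h, 0 of 9 members passed, 0.0323% of all probe sets did, and the members' adjusted p was 1 throughout. TOR2, TCO89 and AVO1 had an unadjusted p under 0.05, a level that 4.62% of all probe sets reached. At 0 h the arrays of MU and WT did not overlap for 7 members, 4 higher in MU (KOG1, AVO1, AVO2 and TSC11) and 3 lower (TOR2, TOR1 and TCO89), beside 34.6% of all probe sets. On the normalized values AVO2 overlapped and LST8 was lower in MU without overlap, again 7 members, beside 34.9%. At 2 h, 3 members lay lower in MU without overlap (LST8, TCO89 and AVO2) and 0 higher, beside 32.3% of all probe sets. On the normalized values 2 members did not overlap, TCO89 (lower) and AVO1 (higher), beside 31.8%. At 6 h, 1 lay higher (BIT61) and 2 lower (TOR1 and TCO89), beside 32.6%. On the normalized values TOR1 overlapped, which left 2 members, beside 32.7%. The test passed 0 members at 2 h and 0 at 6 h, and it passed 0% of all probe sets at either time. At unadjusted p under 0.05 there were 0 members at 2 h and at 6 h, beside 5.46% and 8.73% of all probe sets.

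**Figure D3:**
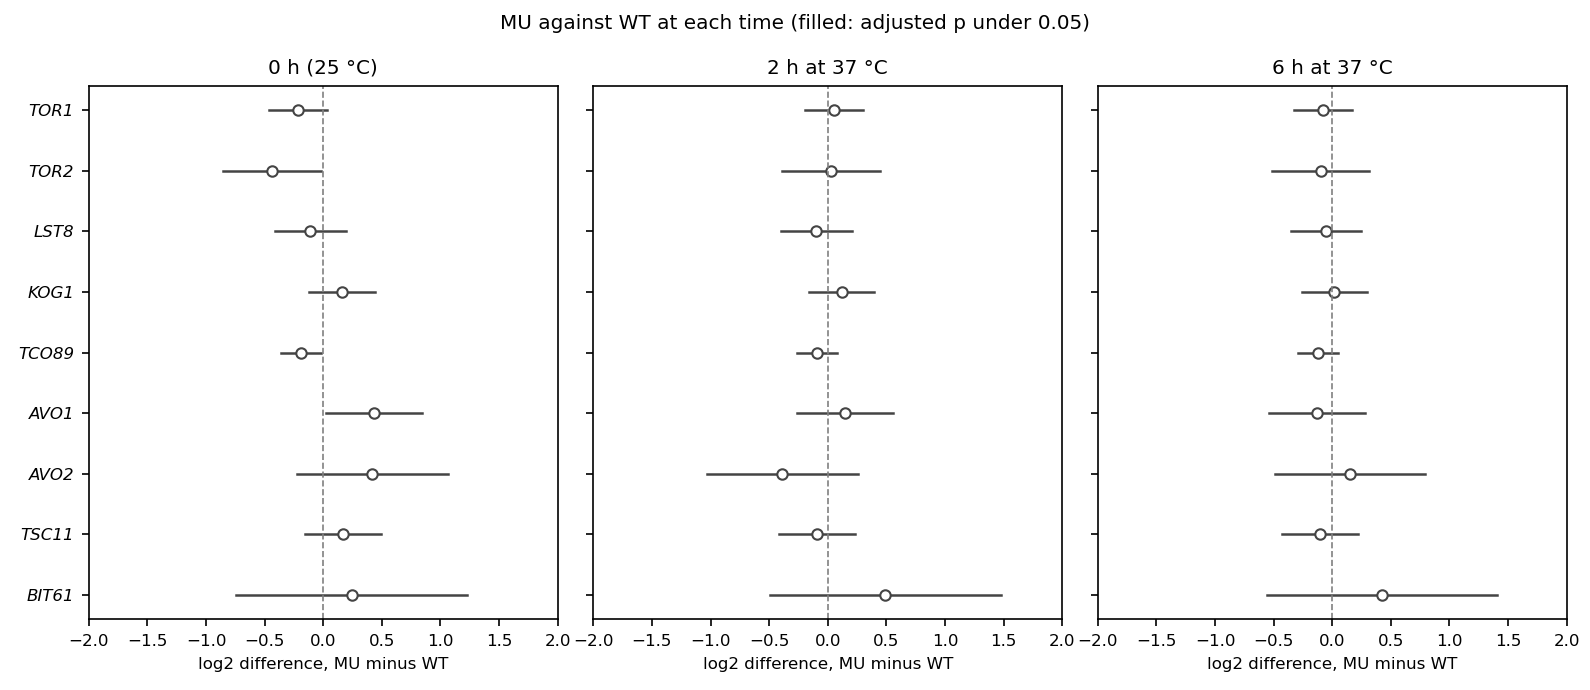
Log2 difference MU minus WT with its 95% interval (horizontal axis) for each gene at 0 h (25 °C) and after 2 h and 6 h at 37 °C; open dots did not pass an adjusted p of 0.05. No dot is filled, and the intervals of TOR2 (-0.85 to -0.02) and AVO1 (0.03 to 0.84) at 0 h lie on opposite sides of 0.

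Averaged over the 3 times, 0 members and 0% of all probe sets passed between MU and WT. In this comparison 1 member (TCO89) had an unadjusted p under 0.05, a level that 8.37% of all probe sets reached. The test of a different change in MU and WT passed 0 members and 0% of all probe sets, at 2 h and at 6 h. At unadjusted p under 0.05 it held 0 members, beside 4.18% of all probe sets at 2 h and 5.01% at 6 h. The intervals for MU minus WT over the 3 times bound what a strain difference could have been. They spanned folds of 0.781 to 1.05 for TCO89, 0.753 to 1.19 for LST8 and 0.835 to 1.35 for KOG1, and were wider for TSC11 (0.742 to 1.40), TOR1 (0.726 to 1.23), TOR2 (0.554 to 1.36), AVO1 (0.688 to 1.79), AVO2 (0.490 to 2.09) and BIT61 (0.598 to 2.78).

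The order of group means placed the 0 h group of MU last for both kinases. For TOR2 the order was WT 6 h, MU 2 h, MU 6 h, WT 2 h, WT 0 h and MU 0 h, and only the last step, between WT 0 h and MU 0 h, had arrays that did not overlap. For TOR1 it was WT 6 h, MU 2 h, WT 2 h, MU 6 h, WT 0 h and MU 0 h, and the last 2 steps had arrays that did not overlap. For AVO2 it was MU 6 h, WT 6 h, WT 2 h, MU 2 h, MU 0 h and WT 0 h, and no neighbours were apart on the normalized values. KOG1 and BIT61 had no neighbouring groups apart on either scale. TCO89 also had 2 steps without overlap, and AVO1 and TSC11 had 1 each, on both scales. Arrays of WT 0 h and MU 0 h, the last step for both kinases, did not overlap for 34.6% of all probe sets. The share of all probe sets for steps in such an order was not computed.

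Because the strains were not shown to differ, the shift was also averaged over MU and WT, a comparison added after the values had been seen. At 2 h, TOR1 was called with a log2 change of 0.28 (SE 0.08, adjusted p = 0.0386), 1 member of 9, where 10.4% of all probe sets were called higher and 9.44% lower. TOR2 (0.39, adjusted p = 0.0680) and AVO2 (0.59, adjusted p = 0.0714) did not pass. At 6 h, 3 of 9 were called higher and 0 lower, beside 16.3% of all probe sets higher and 19.7% lower. They were AVO2 (1.0, SE 0.20, 95% interval 0.55 to 1.45, adjusted p = 0.00579), TOR2 (0.46, SE 0.13, adjusted p = 0.0253) and TOR1 (0.26, SE 0.08, adjusted p = 0.0284). In this 6 h average, the other TOR1 probe sets that never stood at the lowest value changed by -0.14, 0.21, -0.50, 0.04 and 0.80. They did not share a direction, and none was called. AVO2 kept its call in every alternative fit that tested it. TOR1 at 2 h kept its call in 3 of the 12 fits that left out 1 array (WT 2 h B, MU 6 h A or MU 6 h B), with adjusted p up to 0.107 in the others, and it lost the call without the dimmest 25% of probe sets (0.0557), with only the arrays compared (0.0552) and with the mean of all 9 TOR1 probe sets (0.0716). TOR1 at 6 h kept it in 5 (without WT 2 h A or B, MU 2 h A or B, or MU 6 h B), with adjusted p up to 0.0834 in the others, and lost it with the mean of all 9 probe sets (0.10). TOR2 at 6 h lost its call without WT 0 h B, WT 6 h B, MU 0 h A, MU 0 h B or MU 6 h A, with adjusted p up to 0.0784.

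The genes around the complexes were read through a list of 59 genes of the TOR pathway, of which 58 had a plain probe set. FPR1, the rapamycin-binding protein, was not analysed here. In MU at 6 h, 4 of the 58 passed as higher and 4 as lower, where 10.8% of all probe sets were called higher and 11.2% lower. In WT at 6 h, 6 passed as higher and 2 as lower, where 9.84% were called higher and 9.49% lower. These counts are descriptions of the list. At 2 h, 0 passed in MU, where 4.87% of all probe sets were called higher and 3.11% lower. In WT 1 passed as higher at 2 h, beside 5.38% higher and 3.27% lower. Between the strains, and for the difference in their changes, 0 of the 58 passed at any time. Of all probe sets, 0.0323% passed between the strains at 0 h and 0% in the rest of these comparisons. The median log2 change of the list at 6 h was 0.07 in MU and 0.04 in WT, beside -0.06 and -0.04 for all probe sets.

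Among the 14 TORC2 effectors and regulators, ROM2, which encodes an exchange factor for the GTPase Rho1, passed in both strains at 6 h. Its signals were 293.8 and 337.6 in MU at 6 h, against 227.2 and 217.8 at 0 h (log2 change 0.50, adjusted p = 0.0104). In WT they were 315.0 and 289.2 at 6 h, against 231.3 and 212.1 at 0 h (0.42, adjusted p = 0.0213). The arrays of the later time lay above those of 0 h in both strains. YPK2, which encodes a kinase phosphorylated by TORC2, had signals of 60.6 and 62.6 in MU at 6 h, against 35.5 and 35.6 at 0 h (0.78, adjusted p = 0.0561). In WT its signals were 46.5 and 69.0 at 2 h and 60.5 and 54.1 at 6 h, against 27.1 and 24.3 at 0 h, and it passed at both times (1.04, adjusted p = 0.0426, and 1.07, adjusted p = 0.0216). LSP1, which encodes an eisosome core protein, was the other member of this list to pass, in WT at 6 h (0.64, adjusted p = 0.0257). In all, 1 of the 14 rose in MU at 6 h (10.8% of all probe sets) and 3 in WT (9.84% of all probe sets), and 0 fell.

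Among the 8 assembly factors that help fold kinases of the TOR family, 1 passed as higher and 2 as lower in MU at 6 h, beside 10.8% and 11.2% of all probe sets, and 1 as higher and 1 as lower in WT, beside 9.84% and 9.49%. TAH1, a cofactor of the Hsp90 chaperone in this pathway, passed as higher at 6 h in MU (log2 change 0.63, adjusted p = 0.0212) and in WT (0.82, adjusted p = 0.00963). RVB2, a AAA+ ATPase, passed as lower at 6 h in MU (-0.45, adjusted p = 0.0395) and in WT (-0.55, adjusted p = 0.0226). Its partner RVB1 passed as lower in MU, with signals of 345.0 and 280.5 at 6 h against 505.1 and 440.6 at 0 h (-0.61, adjusted p = 0.00771). In WT, RVB1 had 397.4 and 410.6 at 6 h against 479.1 and 480.5 at 0 h (-0.27, adjusted p = 0.121).

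Of the 13 measured TORC1 effectors, RRD2 and NPR1 passed as higher in MU at 6 h, where 10.8% of all probe sets did. RRD2, which encodes an activator of the PP2A-type phosphatases that TORC1 controls, changed by 0.69 (adjusted p = 0.0123), and NPR1, which encodes a kinase that regulates nutrient permeases, by 0.41 (adjusted p = 0.0145). In WT the effector that passed was MAF1, the repressor of RNA polymerase III (0.84, adjusted p = 0.0434), whose change in MU was 0.23 (adjusted p = 0.531). Upstream of TORC1, LST7 was the 1 gene of the 9 in the Rag GTPase and EGO list to pass, in WT at 6 h (0.68, adjusted p = 0.0170), and its change in MU was 0.47 (adjusted p = 0.0548). Of the 8 genes of the SEA complex, which regulates the Rag GTPases, SEH1 (-0.38, adjusted p = 0.0334) and SEC13 (-0.24, adjusted p = 0.0475) passed as lower in MU at 6 h and MTC5 (-0.43, adjusted p = 0.0327) in WT. In these comparisons 11.2% of all probe sets were called lower in MU, and 9.84% higher and 9.49% lower in WT. Seh1 and Sec13 are also nuclear pore proteins. The last list held TOR family genes MEC1, TEL1 and TRA1 (whose product lacks kinase activity) and lipid kinase genes VPS34, STT4 and PIK1. Of these 6, 0 passed in either strain at 6 h, and 2 in each had an adjusted p under 0.1. That level was reached by 2908 of all 9298 probe sets in MU and by 2596 in WT.

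**Figure D4:**
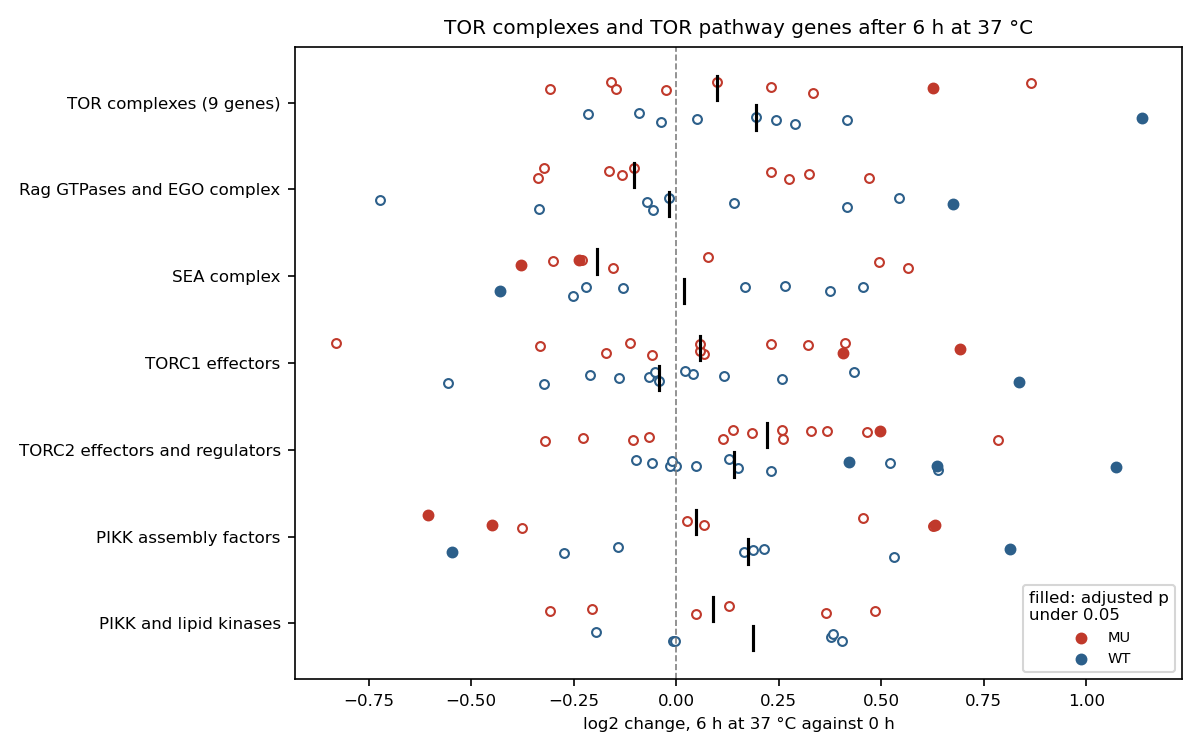
Log2 change at 6 h at 37 °C against 0 h (horizontal axis) of the 9 TOR complex genes and the 58 pathway genes by list, a dot for each gene, MU in red above WT in blue, filled for an adjusted p under 0.05, with a black bar at the median. The median of the TORC2 effectors and regulators was 0.22 in MU and 0.14 in WT, and that of the 9 complex genes 0.10 in MU and 0.19 in WT.

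For the 2 members that passed, the genes with the most similar signals were looked up by Pearson's r of log2 signals over the 12 arrays. The search covered 3621 genes for TOR2 and 3622 for AVO2, all with a mean log2 signal above that of the median probe set. AVO2 itself was dimmer than this limit, so genes as dim as AVO2 were not searched. These r are descriptions, since the 12 arrays fall in 6 groups that share strain and time, and the changes of genes chosen this way follow from the choice and are given without a test. The genes most like TOR2 were ESBP6 (r = 0.911), TOR1 (0.910) and EAP1 (0.907), and TOR2 in turn was in place 4 for TOR1. EAP1, which encodes a protein that binds the translation factor eIF4E, is the next gene on the lower-coordinate side of TOR2 and, by its systematic name YKL204W beside YKL203C of TOR2, lies on the other strand. EAP1 signals in MU were 1034.7 and 1023.7 at 6 h, against 719.6 and 800.0 at 0 h, a log2 change of 0.44. In WT they were 1049.6 and 1139.1 at 6 h, against 950.9 and 855.7 at 0 h (0.26). The genes most like AVO2 were OAF1 (r = 0.949), ATS1 (0.912) and FOX2 (0.911). The log2 change at 6 h of OAF1, which encodes an oleate-activated transcription factor, was 0.48 in MU and 0.57 in WT. That of FOX2, which encodes an enzyme of peroxisomal beta-oxidation, was 0.82 in MU and 0.61 in WT.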

How the data were processed

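Total RNA was read on Affymetrix yeast arrays, and the deposited value of each probe set is a signal intensity on a linear scale, which the authors computed with MAS 5.0 (per the study's methods and the submitters' processing notes); the sources used here name no further scaling by the authors. All 12 columns were mapped to samples by their titles. The 37 control probe sets of foreign or spiked sequence were left out. Signals were put on the log2 scale and quantile-normalized, and a model with the 6 groups was fitted with limma 3.58.1 in R 4.3.3 (lmFit, eBayes with a variance trend, 6 residual and 1.85 prior degrees of freedom). An exact permutation test of 2 arrays against 2 cannot go below p = 0.333, so only the fit across all probe sets was used. The steps were tested on simulated data.

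A gene was read by its plain probe set with 1 gene symbol (6504 probe sets had 1 symbol, 328 several and 2503 none). Named genes were all 9 members; of the pathway list up to 2 with the largest rise and fall in a comparison, and the genes of a complex that is counted; the 3 genes most like each called member; and HSP12, HSP104 and SSA4. LST7, LSP1, ROM2 and NPR1 were named besides, after their values were seen. The members and lists were chosen with earlier results of these data known. RefSeq annotation (R64) gave neighbours and names only. Alternatives covered scaling, an offset, dim probe sets, the variance trend, ranks, the replicate letter, the threshold, the probe sets of TOR1 and the arrays used. The precision is limited by the number of arrays.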

Additional observations from a re-analysis of the deposited data

Results flagged for a closer look

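TSC11 stood out because its deposited signals moved one way in MU and the other way in WT. Both MU arrays at 2 h (86.5 and 99.6) lay below both at 0 h (109.0 and 104.9), and both WT arrays at 2 h (98.8 and 101.2) lay above both at 0 h (88.7 and 98.7), by 98.8 against 98.7 at the closest. On the normalized log2 values the WT arrays of TSC11 overlapped (6.60 and 6.65 at 2 h, against 6.50 and 6.66 at 0 h). The change in MU minus that in WT was -0.26 log2 (SE 0.20, 95% interval -0.71 to 0.20), and limma's test of this difference did not pass (adjusted p = 1).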

How the results depend on the processing

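The number of members called was 0 in every alternative for the comparisons between strains, for the difference between their changes and for 6 h against 2 h. In WT at 2 h (0 called), the deposited values, ranks and a threshold of 0.1 each gave 1, AVO2. In WT at 6 h (1 called, AVO2), leaving out the dimmest 25% of probe sets gave 0, because AVO2 was then not tested, fitting only the arrays compared gave 0, and leaving out 1 array gave 0 to 1. In MU at 2 h (0 called), leaving out the dimmest 25% gave 1 (TOR2), a threshold of 0.1 gave 2, and leaving out 1 array gave 0 to 1. In MU at 6 h (1 called, TOR2), an offset of 16 and ranks gave 2 (with AVO2), a threshold of 0.1 gave 3, only the arrays compared gave 0, and leaving out 1 array gave 0 to 1, where without WT 2 h A or B the 1 was TOR1 and not TOR2. Without the variance trend TOR2 lost its call (adjusted p = 0.0585) and AVO2 gained one (0.0436). Of all 9298 probe sets, the threshold of 0.1 called 1379 in WT at 2 h, 1199 in MU at 2 h and 2908 in MU at 6 h. In MU at 6 h the offset called 2128 and ranks 2054, beside 2047 in the main fit. In WT at 2 h the deposited values called 828 and ranks 827, beside 804. In MU at 2 h, 867 were called without the dimmest 25%, beside 742. Averaged over strains at 2 h (1 called), the dimmest 25% left out kept a count of 1 with TOR2 in place of TOR1, the deposited values gave 2, ranks 3, a threshold of 0.1 gave 3, the mean of all 9 probe sets of TOR1 gave 0, only the arrays compared gave 0, and leaving out 1 array gave 0 to 1. At 6 h (3 called), leaving out 1 array gave 1 to 3. The cause was not tested.

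With the replicate letter as a block, the count in MU at 6 h was 0 (TOR2, adjusted p = 0.0577), and no other member count changed. The letters did not pair the arrays in every group: between groups, the A minus B differences correlated at -0.10 to 0.13, above 0.1 in 1 of 15 pairs of groups, and at -0.34 to 0.27 over probe sets brighter than the median, above 0.1 in 6 of 15. Over the alternatives, AVO2 in WT at 6 h was called in 17 of 21, with adjusted p of 0.0166 to 0.135, and TOR2 in MU at 6 h in 11 of 22, with adjusted p of 0.0219 to 0.162. A lone array left in a group was assumed to vary like the others. The median change of all probe sets did not exceed 0.08 log2 in size in any comparison under these settings, beside up to 0.07 in the main fit. Ranks, which are on another scale, and the fits of only the arrays compared were not included.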
